A study of Mus musculus with 28 samples.

Results

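Nascent transcription of wild-type (WT) mouse embryonic stem cells was compared between 10 min and 5 min of recovery from flavopiridol. The members are the 4 WT libraries of these 2 time points, out of 28 samples in the series, with 2 libraries at each time. All 4 come from cells that were given 1 µM flavopiridol for 60 min, washed, and then labelled during recovery, over 5 or 10 min, with 2 mM of the uridine analogue bromouridine (BrU), after removal of the feeder fibroblasts on which they are grown. The 10-min label was present from the removal of the drug, so RNA labelled in its first 5 min is counted in it as well. The cells carry no allele or transgene by their labels. They are CCE28 cells by the growth description and CJ7 cells by the treatment description in the labels, and both names denote mouse embryonic stem cell lines; which of them was used was not resolved. The study calls the replicates behind its recovery profiles independent experiments, and the labels do not say more about the cultures. The p-values below measure the spread between these libraries. The 5-min and the 10-min values stand in separate tables, and table and time cannot be told apart.

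Flavopiridol inhibits CDK9, the kinase of the positive elongation factor P-TEFb, which releases RNA polymerase II from its pause near the promoter. While the drug is present, polymerases already past the pause run on towards the ends of their genes and few follow them. Whether they had reached the ends of the longest genes before labelling began was not tested. When the drug is washed out, paused polymerases are released together and move into gene bodies. Bru-seq purifies and sequences the RNA that took up BrU during this time, so that a longer recovery lets the labelled region of a gene extend further from its start.

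Reads were counted by the authors per gene and given as RPKM, reads scaled by the counted length of the gene and by the size of the library. The steps between low values showed that genes with introns were counted over the summed length of their introns and genes of a single exon over their whole span, whereas the methods of the study describe counting over whole genes. The 5-min libraries hold 9857528 and 12666277 reads and the 10-min libraries 18820715 and 22057092 reads, so the lower counts at 5 min carry the larger counting error. Replicates correlated at r = 0.911 at 5 min and r = 0.951 at 10 min across genes. A gene was tested where its mean RPKM was above 0.5 at either time, which left 10361 of 24980 genes. As RPKM is relative to the library, the log2 value of each gene, log2(RPKM + 0.1), was centred on the median of its library, and the centred log2 ratio below is the difference between 10 min and 5 min on that scale, which understates the change of genes near 0. Before centring, the median gene was higher at 10 min by 0.64 on the log2 scale. Every ratio below is therefore relative to this shift. A ratio of 0 stands for a gene whose RPKM rose as much as that of the median gene.

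The cells had markers of their labelled type at both times. Of 24 core and naive pluripotency genes 20 passed the filter, and Dppa3, Lin28a, Tcl1 and Zfp281 did not. RPKM of Pou5f1, the core pluripotency factor OCT4, was 5.67 and 8.80 in the 5-min libraries and 12.4 and 13.1 in the 10-min libraries. Nanog stood at 22 and 22.5 and then at 28.7 and 32.5. Of 13 feeder fibroblast markers, 4 passed the filter. These were Fn1, at 7.32 and 7.66 and then 10.2 and 9.56 RPKM, Vim, at 1.95 and 1.94 and then 2.52 and 2.03, and the collagen genes Col1a1, at 0.794 and 0.711 and then 1.44 and 1.01, and Col5a1, at 0.616 and 0.698 and then 0.777 and 0.576. None of the 4 was called between the times, and Vim and Col1a1 were lower against genes of like length. The other 9 markers were below the filter, among them Col1a2 at up to 0.483 RPKM, Postn at up to 0.326 and Thy1, Lum and Dcn at 0.0523 or less. The summed RPKM of all 13 was 11.7 to 11.9 at 5 min and 14.4 to 16.6 at 10 min, and the part of feeder RNA in the results was not tested. None of the 8 neural and 7 endoderm markers passed the filter. Of 8 markers of 2-cell-like cells 1 passed, with fewer than 20 reads on average.

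Between 5 and 10 min the share of reads in long genes fell and that in genes of intermediate length rose. Shares of a library do not give amounts of labelled RNA. Genes over 100 kb held 53.5% and 55.6% of the reads of the 5-min libraries and 27.6% and 28.6% of those of the 10-min libraries. Their share was lower in both 10-min libraries than in either 5-min library, and the difference of the means was -26.4 percentage points, against a standard deviation between replicates of 1.45 at 5 min and 0.727 at 10 min. Genes of 10 to 30 kb rose from 14.1% and 13.2% of the reads to 29.5% and 28.7%, 2.13-fold by the means. Genes of 60 to 100 kb took nearly the same share, 12.6% ± 0.242 at 5 min and 13.4% ± 0.0650 at 10 min (SD, n = 2). Genes under 5 kb held 1.01% ± 0.0134 and 1.34% ± 0.0445 (SD, n = 2). In an exact two-sided permutation test each of these 4 contrasts gave p = 0.33, which is the smallest value that 2 against 2 libraries allow.

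**Figure D1:**
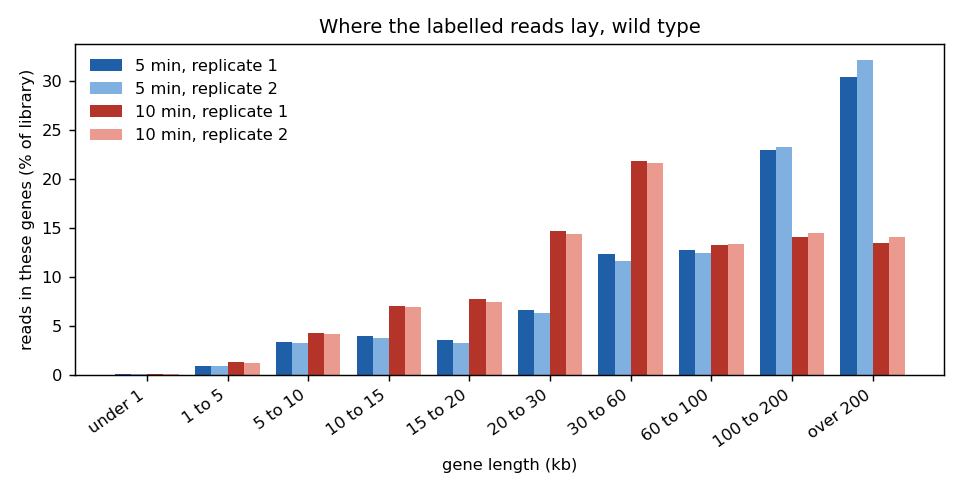
Bars give the percentage of all reads of a library (y axis) that lay in RefSeq genes of each length class (x axis, kb), with 1 bar for each of the 4 WT libraries and no error bars. The 5-min libraries have their largest share, 30.5% and 32.2%, in genes over 200 kb, and the 10-min libraries theirs, 21.9% and 21.7%, in genes of 30 to 60 kb.

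Per gene, 2743 of the 10361 genes tested were higher at 10 min (26.5%) and 2307 were lower (22.3%), by limma on the centred log2 values with a Benjamini-Hochberg adjusted p under 0.05 and a change past 1.5-fold. In 80.7% of all genes tested the centred values of the 2 times did not overlap. Past 2-fold there were 1202 higher and 1709 lower genes. Among the 9311 genes with at least 20 reads on average over the 4 libraries, the same fit called 2589 higher (27.8%) and 2065 lower (22.2%). The balance of higher and lower genes changed with the settings. With RPKM as deposited 5774 genes were higher and 1278 lower, 81.9% and 18.1% of the calls, and with libraries centred on genes under 5 kb 4311 were higher and 1810 lower, 70.4% and 29.6% of the calls, in place of 54.3% and 45.7%. Lower genes outnumbered higher ones with a pseudocount of 0.5 (2100 higher, 2147 lower) or 1 (1682 and 1887), with a mean RPKM above 0.5 at both times (1749 and 1840), and without the first (1193 and 1630, or 42.3% and 57.7% of the calls) or the second 10-min library (1511 and 1883).

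Genes gaining share were of intermediate length and those losing share mostly long. The higher genes had a median length of 18.2 kb (quartiles 11.5 and 27.2 kb) and the lower genes of 88.9 kb (quartiles 11 and 152 kb), beside 18.6 kb for all genes tested. Genes above the filter only at 10 min numbered 1687, with a median of 15.0 kb, and those above it only at 5 min 682, with a median of 65.4 kb. Of genes of 15 to 20 kb, 53.9% were higher and 4.50% lower, and their median centred log2 ratio was 0.69. Of genes of 100 to 200 kb, 0.4% were higher and 88.5% lower, with a median of -1.29. Of the 359 genes over 200 kb, 356 were lower and 0 higher, with a median of -1.71. A gene could pass the filter on its 5-min value alone, as Hs6st3 and Wwox did, which favours lower calls. The median RPKM of the 359 genes was 1.83 at 5 min and 0.798 at 10 min. Shares among genes above the filter at both times were not worked out by length. Genes under 1 kb had a median of -0.36 and genes of 1 to 5 kb one of -0.08. The contrast of genes of 15 to 30 kb with those under 5 kb was -0.35 and -0.50 in the 5-min libraries and 0.39 in each of the 10-min libraries, a difference of 0.82 with a pooled standard deviation of 0.0734 between replicates (exact permutation p = 0.33, the smallest possible).

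**Figure D2:**
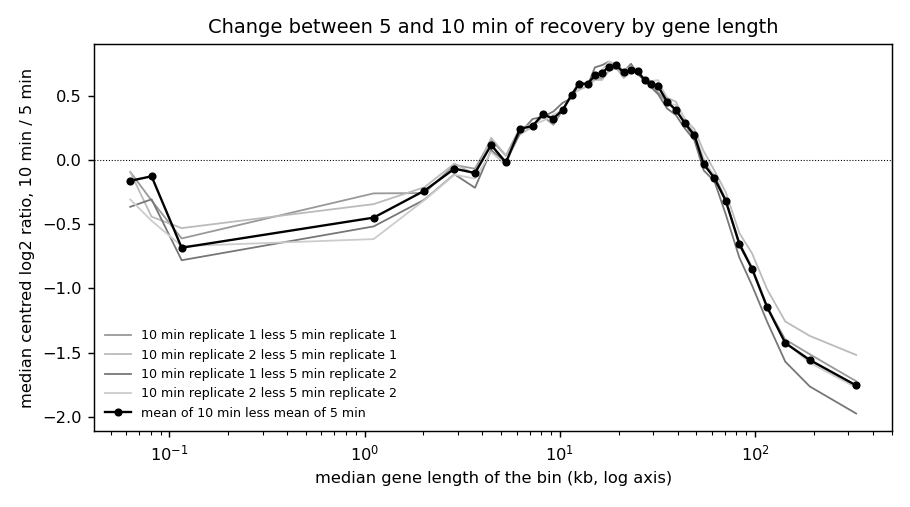
Points give the median centred log2 ratio of 10 min to 5 min (y axis) in 40 bins of gene length with equal numbers of genes (x axis, log scale), and the grey lines give the same for each of the 4 pairs of a 10-min and a 5-min library. The ratio peaks at 0.74 near 19.4 kb, passes 0 between 48.8 and 54.4 kb, and reaches -1.76 in the bin of the longest genes, which has a median length of 329 kb.

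The 2 time points were also set beside the 2 WT libraries labelled for 10 min without the drug, with the limit that the tables of the 3 conditions were scaled separately. At 5 min the median ratio of RPKM to that of untreated cells was between 0.78 and 0.89 for the length classes up to 15 kb, 0.49 for genes of 30 to 60 kb, and 1.80 for genes over 200 kb. At 10 min it was 1.85 for genes of 10 to 15 kb, 0.96 for genes of 30 to 60 kb, 0.63 for genes of 60 to 100 kb and 0.81 for genes over 200 kb. Each class up to 100 kb stood higher against untreated cells at 10 min than at 5 min, by little for genes under 1 kb and those of 60 to 100 kb, and both classes over 100 kb stood lower.

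**Figure D3:**
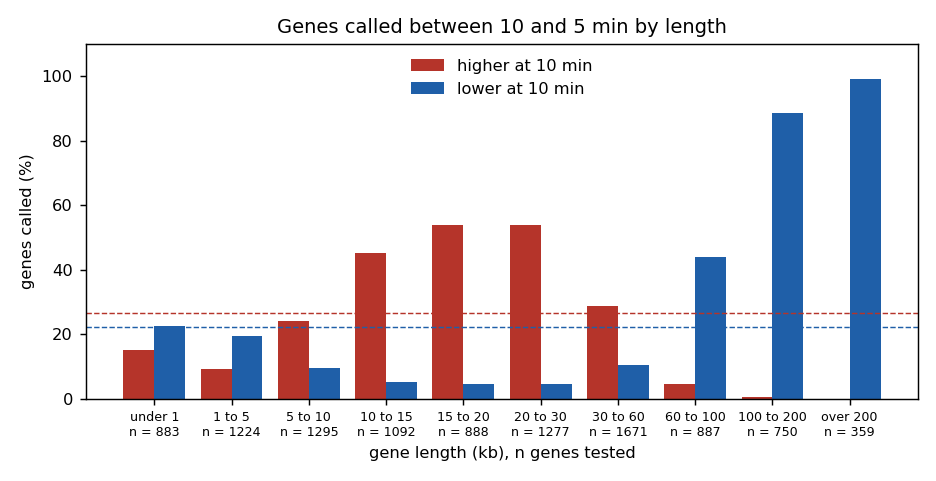
Bars give the percentage of genes of each length class (x axis, kb, with the number tested) that were called higher (red) or lower (blue) at 10 min, and dashed lines give the percentages over all genes, 26.5% and 22.3%. Higher calls pass the background from 10 to 60 kb. Lower calls pass it from 60 kb on and are level with it under 1 kb, at 22.4%.

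The longest genes show the loss at the level of single genes. Exoc4, a subunit of the exocyst, spans 724890 bp and had an RPKM of 14.7 and 17.6 at 5 min and of 5.18 and 5.79 at 10 min, a centred log2 ratio of -2.18 ± 0.21 (SE, limma adjusted p = 0.00404). Cobl, an actin nucleator of 228347 bp, fell from 32.0 and 37.9 to 15.3 and 16.5, with a ratio of -1.77 ± 0.20 (limma adjusted p = 0.00469). Tns3, which links integrins to actin and spans 233107 bp, went from 13.4 and 14.7 to 10.0 and 9.86, with a ratio of -1.14 ± 0.16 (limma adjusted p = 0.00652). In all 3, which have the highest mean RPKM among genes over 200 kb, both 10-min libraries lay below both 5-min libraries before centring as well. The 3 genes over 200 kb that were not called, named after their values were seen, are Dlc1, Mipol1 and Tjp1. Dlc1 rose from 0.326 and 0.367 RPKM to 0.595 and 0.563, close to the shift of the median gene, with a ratio of -0.03 (limma adjusted p = 0.89). Tjp1, a tight junction scaffold, spans 231686 bp, but its RPKM fits a counted length of 68080 bp.

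Znrf3 lost more than other genes of its length. It encodes a membrane ubiquitin ligase that removes Wnt receptors, spans 168519 bp on the minus strand of chromosome 11 (5276329 to 5444847, GRCm38.p6), and had an RPKM of 12.6 and 18.5 at 5 min and of 2.45 and 2.27 at 10 min. Its ratio was -3.28 ± 0.27 (limma adjusted p = 0.00358), and -2.02 against genes of like length (limma adjusted p = 0.0112). Ptpn12, a protein tyrosine phosphatase of 69267 bp, fell from 3.41 and 4.43 to 0.758 and 0.637, with a ratio of -2.97. Rpgr, a regulator of trafficking in cilia, fell from 1.94 and 3.31 to 0.419 and 0.441, with a ratio of -2.96, and Sbspon from 1.78 and 1.99 to 0.299 and 0.223, with a ratio of -3.11. In each of these genes the libraries of the 2 times were far apart, although the 5-min replicates of Znrf3 and Rpgr differed by more than those at 10 min. Rpgr and Sbspon passed the filter only at 5 min, which favours a large loss.

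Several of the genes with the largest loss lie inside longer genes. A gene could pass the filter on its mean RPKM at 5 min alone, a selection that itself favours large losses. Ogn, Omd, Gpr18, Zfp992, Gtsf2 and Slc16a4, described here, passed it only at 5 min. Ogn, Omd and Aspn, which encode small leucine-rich proteoglycans of the extracellular matrix, lie in a row on chromosome 13 inside Cenpp, a kinetochore gene of 188926 bp on the opposite strand. Ogn (49608015 to 49624501) had an RPKM of 5.69 and 4.65 at 5 min and 0.459 and 0.258 at 10 min, a ratio of -4.19 ± 0.21 (limma adjusted p = 0.00344). Omd had a ratio of -3.63 and Aspn one of -3.27. Cenpp itself went from 4.01 and 3.93 to 0.959 and 0.926, a ratio of -2.61. At 5 min its RPKM lay within the range of the 3 matrix genes in each library, and at 10 min above all 3. The sources used here do not say whether strand was used in counting, so reads of Cenpp and of the matrix genes cannot be told apart. Gpr18, a G protein-coupled receptor gene inside Ubac2, fell likewise from 4.15 and 2.34 to 0.263 and 0.269, with a ratio of -3.78, while Ubac2 had a ratio of -1.92. Zfp992, a zinc finger gene, lies inside the pseudogene Vmn2r-ps16 on the same strand and fell from 4.15 and 4.54 to 0.464 and 0.374. Gtsf2 lies inside Gm52195 and fell from 1 and 1.1 to 0.0907 and 0.0619, and Slc16a4, a transporter gene that overlaps Rbm15 in part, fell from 2.03 and 3.42 to 0.49 and 0.34; both hosts are on the opposite strand.

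Position inside a long gene went with loss in short genes as a class. Of 126 genes of 5 to 30 kb that lie inside a gene of 60 kb or more, 10 were higher and 85 lower (67.5%), with a median ratio of -1.43. Of 4426 genes of the same lengths that do not, 1960 were higher (44.3%) and 192 lower (4.34%), with a median of 0.56. Among genes under 5 kb with at least 20 reads, 44 of 72 inside such a gene were lower (61.1%) and 167 of 1038 others (16.1%). The host genes are counted over the same bases, so these are descriptions of the counted regions, and the part of reads from the host was not tested.

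The largest gains were in genes with little signal at 5 min, a pattern that the selection itself favours. A gene could pass the filter on its mean RPKM at 10 min alone, and a ranking by ratio puts genes with low 5-min values first. Nfe2l3, Ip6k2 and Tex43 passed the filter only at 10 min, and Masp2 passed it at both times. Masp2, a serine protease of the lectin pathway of complement, spans chromosome 4 from 148594622 to 148615499 and rose from 0.697 and 0.510 RPKM to 9.28 and 8.27, a ratio of 3.03 ± 0.13 (limma adjusted p = 0.00344). Nfe2l3, a bZIP transcription factor, rose from 0.543 and 0.312 to 4.63 and 4.37, with a ratio of 2.52 ± 0.19. Ip6k2, an inositol hexakisphosphate kinase, rose from 0.215 and 0.0742 to 2.94 and 2.44 and had a ratio of 2.93. All 3 are 20 to 30 kb long and are well above their 5-min values in both 10-min libraries. Tex43 had 0 reads in both 5-min libraries and 1.36 and 1.21 RPKM at 10 min; against a floor of 3 reads per library this is at least 27.9-fold higher before centring. It overlaps the longer gene Phax, with 1.95 and 2.54 and then 5.74 and 6.72 RPKM.

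Has3, Baat and Klhl10 are known for roles in other tissues. Has3 makes hyaluronan, and it went from 0.180 and 0.129 RPKM to 3.39 and 2.11. Baat conjugates bile acids and stood at 0.0667 and 0.0727 before 1.60 and 1.04, and Klhl10, a testis gene, stood at 0.101 and 0.0543 before 1.51 and 1.28. For Has3 and Baat the 10-min replicates differed by more than the 5-min replicates, though the times do not overlap. Smim18, Klhdc9, Elmo3, Clba1 and Mfrp complete the 12 largest gains, with ratios from 2.28 for Mfrp to 2.92 for Smim18. Smim18, Klhdc9 and Klhl10 overlap the longer genes Gtf2e2, Pfdn2 and Nt5c3b. Masp2 starts 0.002 kb beyond the end of Srm and Elmo3 0.09 kb beyond that of E2f4, on the same strand. Baat starts 4.68 kb beyond the end of Mrpl50, also on its strand. Of the 909 genes with at least 20 reads that were higher than others of their length, 12% had the end of a tested gene within 10 kb upstream on the same strand, against 14.5% of all 9310. A longer gene was overlapped by 18.7% of the 909, by 24.6% of the genes lower than others of their length, and by 16.7% of all. Under 5 kb these shares were 50.6%, 43.4% and 38.4%. The part of neighbouring genes was not tested.

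**Figure D4:**
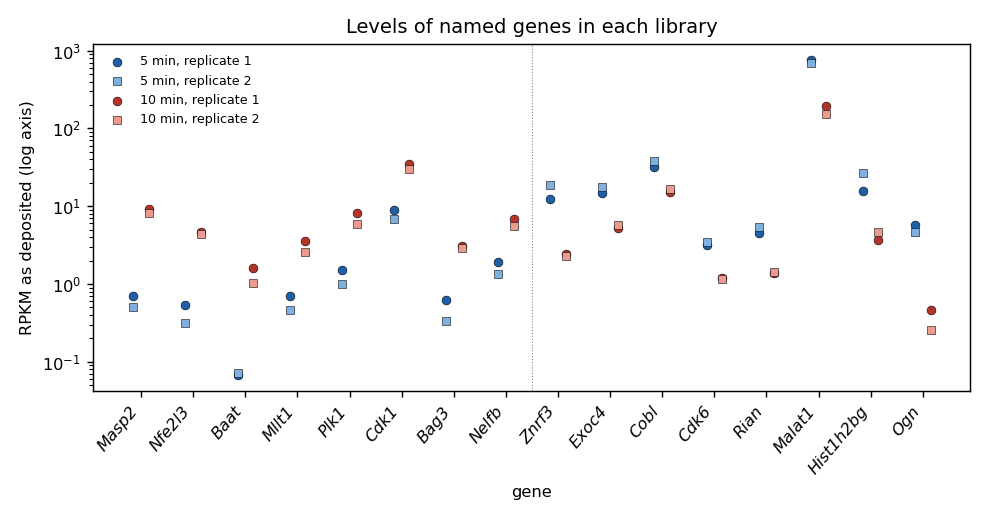
Points give the RPKM as deposited (y axis, log scale) of 16 named genes (x axis) in each of the 4 WT libraries, blue for 5 min and red for 10 min, with genes that were higher at 10 min left of the dotted line and lower genes right of it. The libraries of the 2 times do not overlap in any of the 16, and Masp2 shows a gain of 14.5-fold and Ogn a ratio of 0.0693 by the mean RPKM.

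When each gene was set against others of its own length, by subtracting the median of its length class from the log2 values, 1069 of 10326 genes were higher (10.4%) and 1488 lower (14.4%). These counts rest on having both 10-min libraries: they fell to 56 and 159 without the first and to 67 and 229 without the second. The largest gains in this fit were Tex43, Klhdc9, Smim18, Ccdc34, Lrrc14b and Masp2, and the largest losses Ogn, Zfp992, Omd, Gtsf2, Aspn and Slc16a4. Ccdc34 spans 158164 bp in RefSeq but its RPKM fits 25440 counted bp, so its place among long genes is one of annotation; it rose from 0.451 and 0.428 RPKM to 2.08 and 1.77. Esrrb, a naive pluripotency factor of 160512 bp, had an RPKM of 6.89 and 5.11 at 5 min and 11.1 and 9.89 at 10 min. Its ratio was 0.17, and 1.43 against genes of its length (limma adjusted p = 0.013). Of the genes over 100 kb, 3 were called higher without regard to length, namely Ccdc34, Matn2 and Spink10; these and Esrrb were picked out after their values were seen.

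Of 21 genes for P-TEFb, its regulators and partner kinases, 4 were higher and 6 lower, with a median ratio of 0.30, beside 26.5% and 22.3% of all genes and a median of 0.17. Cdk9, the target of the drug, had 7.53 and 8.58 RPKM at 5 min and 10.9 and 11.5 at 10 min, a ratio of -0.16 (limma adjusted p = 0.475). Mllt1, the super elongation complex subunit ENL, rose from 0.709 and 0.467 to 3.52 and 2.61, a ratio of 1.57 ± 0.19 (limma adjusted p = 0.00503). Aff1, the scaffold of that complex and 162961 bp long, fell from 10.5 and 12 to 5.01 and 6.34, with a ratio of -1.62. Mllt3, of 263483 bp, fell from 1.49 and 1.68 to 0.473 and 0.558, with a ratio of -2.10. Mnat1, the assembly factor of the CDK7 kinase, had a ratio of -1.72 and spans 161804 bp. Against genes of their length 2 of the 21 were higher, Mllt1 and Eaf2, and 0 were lower.

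Pausing and elongation factors were higher or not called. Of 20, 8 were higher (40%) and 0 lower, beside 26.5% and 22.3% of all genes, with a median ratio of 0.49. Their median length of 21.1 kb lies in the range where genes gained, and 53.8% of all genes of 20 to 30 kb were higher. All 4 subunits of the negative elongation factor NELF, which holds polymerase at the pause, were among the 8. Nelfb rose from 1.89 and 1.35 RPKM to 6.93 and 5.53, with a ratio of 1.25 ± 0.16 (limma adjusted p = 0.00571), and Nelfcd from 0.891 and 0.535 to 2.88 and 2.3, with a ratio of 1.11. Leo1 and Wdr61, subunits of the PAF1 elongation complex, had ratios of 1.04 and 0.95, whereas Paf1 itself had one of -0.44 that was not past 1.5-fold. Eloa, which encodes Elongin A, had 2.96 and 2.82 RPKM at 5 min and 4.65 and 6.51 at 10 min, with a ratio of 0.27 (limma adjusted p = 0.37). Against genes of their length 2 of the 20 were higher and 2 lower.

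Cell cycle genes had the highest median of the lists, which was near 0 against genes of like length. Of 30 tested, 16 were higher (53.3%) and 2 lower (6.67%), beside 26.5% and 22.3% of all genes, with a median ratio of 0.60. Against genes of their length 5 were higher and 2 lower, with a median of 0.05. Plk1, a mitotic kinase, rose from 1.5 and 1.01 RPKM to 8.19 and 5.86, with a ratio of 1.76 ± 0.20 (limma adjusted p = 0.00472). Cdk1, the kinase that drives mitosis, rose from 8.84 and 6.80 to 35.3 and 30.0, with a ratio of 1.41, and Ccne1, cyclin E1, from 0.455 and 0.573 to 2.53 and 3.07, with a ratio of 1.60. Both lower members are long. Cdk6, a G1 kinase of 190005 bp, fell from 3.18 and 3.45 to 1.18 and 1.17, with a ratio of -2.05, and Rb1, the retinoblastoma protein gene, from 1.47 and 1.55 to 0.832 and 0.860, with a ratio of -1.41.

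Among heat shock and chaperone genes 8 of 26 were higher (30.8%, beside 26.5% of all genes) and 3 lower, and against genes of like length 2 were higher and 4 lower, with a median of -0.32. Bag3, a co-chaperone, rose from 0.624 and 0.338 RPKM to 3.09 and 2.88, with a ratio of 1.81 ± 0.22 (limma adjusted p = 0.005), and Hsf1, the heat shock transcription factor, from 1.20 and 0.715 to 5.14 and 4.04, with a ratio of 1.54. Hsp90aa1, the inducible HSP90, was one of the lower members, at 99.4 and 111 RPKM and then 70.5 and 66.2, with a ratio of -1.26 (limma adjusted p = 0.0064); it is 5360 bp long and was also lower against genes of its length. Hsp90b1, its relative in the endoplasmic reticulum, had a ratio of 0.93 and spans 14604 bp.

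Of the immediate early genes, which are mostly short and respond quickly to stimuli, 4 of 34 were higher (11.8%) and 6 lower (17.6%), with a median ratio of -0.13. Both shares lie below those of all genes, 26.5% and 22.3%. Srf, a transcription factor that drives many of them, rose from 0.832 and 0.663 RPKM to 3.61 and 2.68, with a ratio of 1.29, and Per1, a clock gene, had a ratio of 0.89. Gadd45a, a growth arrest gene, had 4.64 and 2.89 RPKM at 5 min and 2.82 and 2.45 at 10 min, with a ratio of -1.11. Klf2 had 7.92 and 14.4 and then 6.80 and 9.64, values that overlap between the times, and was not called. Myc, a growth regulator counted among the lower genes, rests on 19 reads on average.

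In the pluripotency network 16 of 20 genes were not called, 1 was higher (5%) and 3 were lower (15%), beside 26.5% and 22.3% of all genes. Sox2 had 25.8 and 29.1 RPKM at 5 min and 16.0 and 15.5 at 10 min, a ratio of -1.44 ± 0.17 (limma adjusted p = 0.00498); it lies inside Sox2ot, a noncoding gene of 117613 bp with a ratio of -0.61. Klf4 had 21.1 and 22.9 and then 19.7 and 19.1, with a ratio of -0.82, and Nr5a2, of 117887 bp, had 2.45 and 2.48 and then 1.42 and 1.43, with a ratio of -1.39. The groups of these 3 do not overlap, and of the 3 only Nr5a2 was not also lower against its length. Dppa5a, which was not called, had 7.94 and 12.1 and then 8.84 and 7.36.

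Of 21 p53 targets 4 were higher (19%) and 2 lower (9.52%), both below the shares of all genes, and against genes of like length 0 were higher and 5 lower. Sesn2, of 17653 bp, rose from 3.01 and 2.47 RPKM to 8.25 and 8.46, with a ratio of 0.94, while Sesn1, of 97863 bp, fell from 1.82 and 1.43 to 0.522 and 0.400, with a ratio of -2.26. Both encode sestrins, which act on stress signalling to mTORC1. Of 21 feedback genes 3 were higher and 1 lower; Skil, an inhibitor of SMAD signalling, rose from 0.362 and 0.308 to 1.58 and 1.56, with a ratio of 1.3, and Smad6, another such inhibitor of 69010 bp, fell from 0.801 and 0.624 to 0.423 and 0.442, with a ratio of -1.24. Among 7 genes of the MYC network 1 was higher and 2 lower, with a ratio of 0.77 for Max and -1.80 for Mga, of 97627 bp.

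Polycomb genes, which encode the repressive chromatin complexes PRC1 and PRC2, had 6 of 18 members higher and 4 lower, that is 10 of 18 called, against 48.7% of all genes. Rnf2, the ubiquitin ligase of PRC1, rose from 2.69 and 2.38 RPKM to 9.59 and 9.74, with a ratio of 1.25 ± 0.12 (limma adjusted p = 0.00404), and Pcgf6 from 0.479 and 0.362 to 2.13 and 1.88, with a ratio of 1.38. Jarid2, a PRC2 partner of 190870 bp, went from 10.0 and 11.1 to 7.07 and 8.56, with a ratio of -1.08. Eed, a PRC2 core subunit, had 20.7 and 20.0 RPKM at 5 min and 33.5 and 31.8 at 10 min, a ratio of 0.04 (limma adjusted p = 0.824) and of -0.67 against genes of its length (limma adjusted p = 0.0352). Dhx9, a helicase gene of similar length outside this list, had 17.7 and 18.3 and then 40.8 and 42.1, a ratio of 0.56 that was not past 1.5-fold (limma adjusted p = 0.0384).

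Genes for splicing regulators, glycolysis, the proteasome and Zfp zinc finger proteins had 13.5%, 26.7%, 21.6% and 33.4% of their 37, 15, 37 and 290 tested members higher, and 5.41%, 6.67%, 5.41% and 8.28% lower, beside 26.5% and 22.3% of all genes. Against genes of like length 1 splicing gene was higher and 7 were lower, 1 glycolysis gene was higher and 0 were lower, 1 proteasome gene was higher and 7 were lower, and 14 Zfp genes were higher and 36 lower. Clk4, a kinase of splicing factors, rose from 1.75 and 1.46 RPKM to 6.69 and 6.51, with a ratio of 1.34, and Srpk2, another such kinase of 181287 bp, fell from 1.68 and 1.88 to 0.533 and 0.620, with a ratio of -2.12. Slc2a1, the glucose transporter GLUT1, had a ratio of 1.45. Psme4, a proteasome activator of 109376 bp, had a ratio of -1.15, and Psmd9 one of 1.03. Zfp704, of 183076 bp, fell from 11.2 and 9.89 to 3.12 and 3.23, with a ratio of -2.34. The Zfp list had a median ratio of 0.39, and one of -0.10 against genes of like length.

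Of 85 genes for cytosolic ribosomal proteins, whose median length is 3.16 kb, 0 were higher and 12 lower (14.1%), with a median ratio of -0.20. Of all genes tested 26.5% were higher and 22.3% lower, and of genes of 1 to 5 kb 9.23% and 19.3%. Rpl8 had 18.7 and 19.7 RPKM at 5 min and 14.5 and 15.5 at 10 min, with a ratio of -1.0, and Rpl7a a ratio of -0.95. Against genes of like length 1 of the 85 was higher and 6 were lower. Of 78 genes for mitochondrial ribosomal proteins, whose median length is 7.69 kb, 17 were higher (21.8%) and 7 lower (8.97%), with a median ratio of 0.19. Against genes of like length 10 of the 78 were higher and 11 lower. The difference between the lists was not tested. Mrps21 rose from 0.543 and 0.714 to 3.44 and 3.03, with a ratio of 1.56, and Mrps28, of 121712 bp, fell from 1.45 and 1.76 to 0.614 and 0.648, with a ratio of -1.86.

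**Figure D5:**
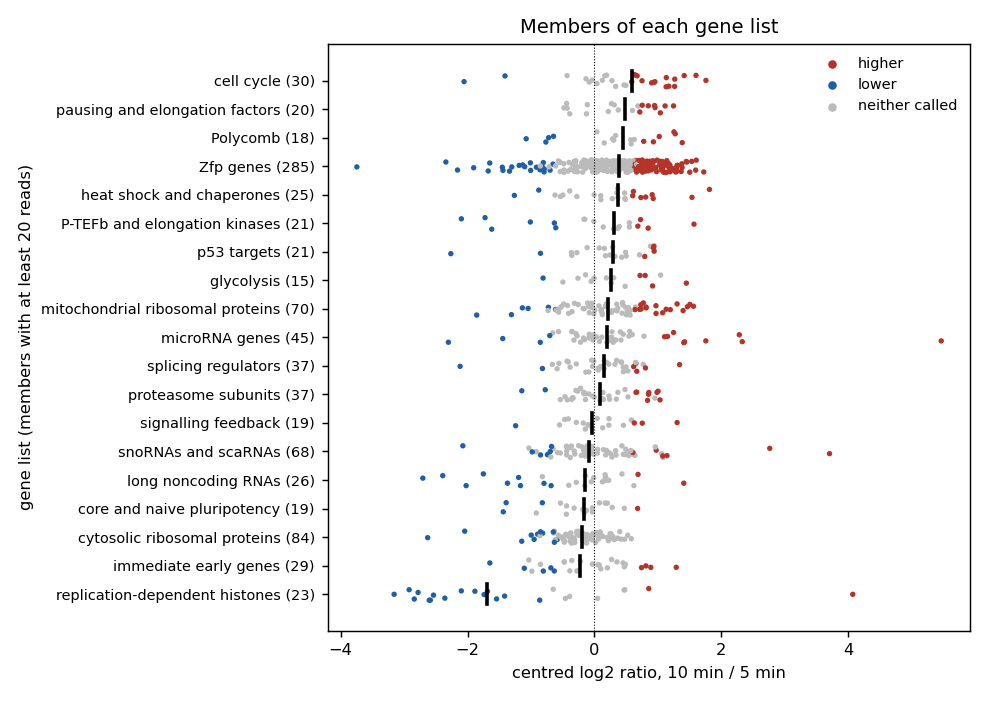
Points give the centred log2 ratio of 10 min to 5 min (x axis) of each member with at least 20 reads, by gene list (y axis, number of members), coloured by call, and black bars give the medians. Cell cycle genes have the highest median, 0.60, and replication-dependent histone genes the lowest, -1.69.

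Replication-dependent histone genes, which are short, lack introns and supply histones during DNA replication, were the list with the largest loss. Of 48 tested, 34 were lower (70.8%) and 2 higher, with a median ratio of -1.83; 25 of the 48 had under 20 reads, and among the other 23 there were 15 lower and 2 higher. Hist1h2bg (chromosome 13, 23571400 to 23571863) had 15.7 and 26.7 RPKM at 5 min and 3.66 and 4.69 at 10 min, with a ratio of -2.92 ± 0.37 (limma adjusted p = 0.00545). Hist1h3e went from 9.71 and 12.9 to 2.03 and 2.99, with a ratio of -2.78, and Hist1h4d from 13.5 and 11.8 to 7.94 and 5.67, with a ratio of -1.54. The times do not overlap in these genes, each of which rests on 56 to 83 reads on average. Near-identical copies within this family make the placing of single reads uncertain. Of the 2 higher members, Hist1h1t, a testis linker histone gene of a single exon, had 0 and 0.107 RPKM at 5 min and 5.06 and 2.65 at 10 min, a ratio of 4.07 on 28.5 reads on average. The other, Hist1h2bc, has introns by its counted length and a span of 8282 bp, and rose from 5.65 and 6.52 to 18.1 and 16.5.

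The promoters of the 3 lower histone genes described above are shown, read from RefSeq on GRCm38.p6 and running from 250 bases before to 50 bases after the annotated start, 5′ to 3′ on the gene's strand. Capitals mark TATAAA and CCAAT on either strand (TTTATA and ATTGG on the other), which are the letters of the TATA box and of the CCAAT box; the pair do not overlap one another here.
Hist1h2bg, plus strand, chr13:23571150-23571449: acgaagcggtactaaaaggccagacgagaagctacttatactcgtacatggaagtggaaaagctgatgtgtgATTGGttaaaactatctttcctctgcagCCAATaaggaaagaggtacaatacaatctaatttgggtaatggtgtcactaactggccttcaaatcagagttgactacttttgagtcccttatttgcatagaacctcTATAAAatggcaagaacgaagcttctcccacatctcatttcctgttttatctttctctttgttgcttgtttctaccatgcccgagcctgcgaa
Hist1h3e, minus strand, chr13:23562336-23562635: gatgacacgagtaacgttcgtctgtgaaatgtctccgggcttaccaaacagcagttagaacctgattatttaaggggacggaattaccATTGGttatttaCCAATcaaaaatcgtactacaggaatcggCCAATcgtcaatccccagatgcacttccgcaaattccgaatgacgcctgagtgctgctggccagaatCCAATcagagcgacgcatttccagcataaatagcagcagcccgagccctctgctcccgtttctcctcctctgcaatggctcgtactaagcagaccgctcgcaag
Hist1h4d, plus strand, chr13:23581318-23581617: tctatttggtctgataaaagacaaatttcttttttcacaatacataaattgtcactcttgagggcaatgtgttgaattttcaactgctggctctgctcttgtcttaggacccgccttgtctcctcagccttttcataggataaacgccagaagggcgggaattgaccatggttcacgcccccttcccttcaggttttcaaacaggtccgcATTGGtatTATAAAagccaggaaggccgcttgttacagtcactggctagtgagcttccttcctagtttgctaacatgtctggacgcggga

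A promoter window was found for 43 of the 48 histone genes. Of these, 25 hold TATAAA (58.1%) and 36 hold CCAAT (83.7%), against 15.7% and 41.1% of the 27025 genes in the table, where a gene counts if any of its windows holds the letters. Hist1h3e holds CCAAT at 4 places and no TATAAA. Among the 31 lower histone genes with a window 54.8% hold TATAAA and 87.1% CCAAT, and among the other 12 66.7% and 75%, so that the letters do not separate the lower genes from the rest of the family. A match is a description of the sequence and not a bound site.

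Protein-coding genes without introns were more often among the lower genes, a difference that was not tested. Of 169 protein-coding genes under 10 kb of a single exon and with at least 20 reads, 12 were higher and 66 lower (39.1%), with a median ratio of -0.39. Without the histone genes, a split made after the data were seen, 51 of 148 were lower (34.5%). Of 1802 such genes with introns, 344 were higher and 161 lower (8.93%), with a median of 0.15. The single-exon genes are shorter, with a median span of 2.15 kb against 6.01 kb, and are counted over exons, where mature RNA would be counted too; the part of length and of unlabelled RNA was not tested. Among protein-coding genes outside a host of 60 kb or more the lower shares were 35% and 8.12%. Among long noncoding RNA genes under 10 kb the shares were close, at 18 of 62 of a single exon (29%) and 50 of 187 with introns (26.7%).

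Abundant noncoding RNAs had some of the largest losses. Malat1, a nuclear noncoding RNA counted over its 6983 bp, had 764 and 688 RPKM at 5 min and 196 and 153 at 10 min, a ratio of -2.70 ± 0.17 (limma adjusted p = 0.00344), and 125 RPKM in untreated cells by the mean of the 2 libraries. Its neighbour Neat1, the scaffold of paraspeckles, had 9.04 and 7.82 and then 16.0 and 13.8, a ratio of 0.18 that did not pass the test. Of 26 long noncoding RNAs 2 were higher (7.69%) and 9 lower (34.6%), beside 26.5% and 22.3% of all genes. Rian, an imprinted noncoding gene of 57772 bp, fell from 4.52 and 5.42 to 1.37 and 1.43, with a ratio of -2.39. Kcnq1ot1, of 83437 bp, which silences imprinted neighbours, fell from 13.4 and 9.89 to 6.15 and 4.52, with a ratio of -1.75. It lies inside Kcnq1, a gene of 320174 bp on the opposite strand with a ratio of -1.69. Mir17hg, the host of the miR-17-92 cluster, rose from 2.95 and 2.06 to 10.6 and 10.4, with a ratio of 1.41.

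Of 6 transcripts of the other RNA polymerases that passed the filter 0 were higher and 3 lower. Rn45s, the ribosomal RNA precursor made by RNA polymerase I, had 1855 and 1610 RPKM at 5 min and 906 and 1028 at 10 min, with a ratio of -1.48 (limma adjusted p = 0.00522); it could not be matched to the annotation, and ribosomal RNA was depleted before sequencing. Rmrp and Rpph1, the RNA subunits of RNase MRP and RNase P, had 105 and 29.9 and then 24 and 7.91 for the former and 70.9 and 31.1 and then 19.5 and 9.21 for the latter. Their replicates differed by over 2-fold at each time, and their ratios of -2.65 ± 0.75 and -2.44 ± 0.49 (limma adjusted p = 0.0401 and 0.0154) carry larger errors than those of the other genes described. Scarna2, a small Cajal body RNA, fell from 173 and 155 to 61.8 and 59.5, with a ratio of -2.07.

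Small RNA genes embedded in other genes moved either way. Of 110 snoRNA and scaRNA genes 9 were higher and 15 lower, but 42 had under 20 reads, and among the other 68 there were 6 higher and 6 lower. Of 594 microRNA genes 113 were higher and 110 lower, but 549 had under 20 reads, and among the other 45 there were 9 higher and 4 lower. Snora2b, Snord111 and Snora75, which lie in introns of Kansl2, Sf3b3 and Ncl, had ratios of 1.14, 1.08 and 0.97. Mirlet7a-1 rose from 13.0 and 15.1 RPKM to 46.4 and 51.1, with a ratio of 1.15. The members of the miR-290 cluster, the main microRNAs of these cells, were not called; Mir295 had 92.6 and 105 and then 112 and 85.4.

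The change of WT cells was also set against that of EloA null cells, which lack Elongin A and were treated and labelled in the same way, with 2 libraries at each time. In the test of the difference between the 2 changes, 1 of 10862 genes was higher (0.00921%) and 4 lower (0.0368%), and all 5 are microRNA genes with at most 28 reads in any library. An unadjusted p under 0.05 was given by 362 genes. The median ratio by length class ran from 0.70 at 15 to 20 kb to -1.68 over 200 kb in WT and from 0.67 to -1.94 in the null cells. On simulated data the same test recovered 36 of 50 genes with a 4-fold and 3 of 50 with a 2-fold difference. Its 16 false calls all had fewer than 20 reads. The simulation gave every gene the same dispersion and held no change with gene length, so this recovery does not carry over to these data.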

How the data were processed

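Nascent RNA was measured by Bru-seq. Paired-end reads were aligned by the authors to mm10 (and dm3) with Bowtie2 2.3.4.3, uniquely aligned reads were kept, strands were separated with SAMtools, reads in RefSeq genes were counted with featureCounts 1.6.1, and edgeR was used by the authors for the deposited RPKM values, given per library in 1 table per condition. Mean columns were not used. Use of strand in counting, and scaling between tables, are not given in the sources used here.

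The 4 WT libraries were taken by their titles and joined by gene name, without the rows of 4 duplicated, date-like names; 24448 genes were matched to RefSeq of GRCm38.p6 by symbol, 405 by an older symbol and 127 not. Read numbers and library sizes were worked out from the RPKM steps, and 90.9% of tested genes gave whole reads within 0.05 (0% with lengths 37 bases too long). Reads in matched genes made up 97.2% to 97.9% of the sizes, so each library is scaled to its own total.

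The times were compared with limma 3.58.1 (R 4.3.3), fitted with a mean-variance trend to log2(RPKM + 0.1) of genes with a mean RPKM above 0.5 at either time, and p-values were adjusted by Benjamini-Hochberg; called genes have an adjusted p under 0.05 and a change past 1.5-fold. The length fit used 10 length classes. On simulated libraries of 10326 genes, of which 200 were changed, the comparison of the times called 34 of 50 genes at 4-fold and 45 of 50 at 8-fold, but 0 of 50 at 2-fold or at 1.5-fold. Its 39 false calls all had fewer than 20 reads. The simulation changed far fewer genes than the data, where 48.7% were called, and held no change with gene length. Recovery in the simulation therefore does not carry over to these data, where 2743 genes were called higher and 1202 of them past 2-fold. Single values per library were compared by exact permutation.

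Named genes were the 12 largest gains and losses among called genes that do not overlap between times, have at least 50 reads on average and are not Mir, Sno, Gm or Rik genes, the 6 largest of each in the length fit, up to 4 members per list, the 3 highest genes over 200 kb, and Eed, Dhx9 and Eloa; Rn45s, and list members beyond these, were named after their values were seen. Gene lists and members were chosen with earlier results of these data known. Alternatives included pseudocounts, filters, centring, a replicate block and leaving out each library. Samples of other assays were not used here.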

Additional observations from a re-analysis of the deposited data

Results flagged for a closer look

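Differences between EloA null and WT cells in the change from 5 to 10 min passed the test in 5 microRNA genes with at most 28 reads in any library. The limma adjusted p of the difference was 0.0362 for Mir15a, which had 0 RPKM in both WT libraries at 5 min and 6.33 and 3.78 at 10 min, against 0.999 and 1.38 and then 2.98 and 3.75 in the null cells. It was 0.0322 for Mir182, at 0 and then 2.13 and 1.81 in WT and 1.12 and 0.772 and then 2.00 and 1.87 in null cells. For Mir219a-2 (adjusted p = 0.0393) the 0 lay in the null cells at 5 min, with 1.05 and 0.814 in WT. Mir3104 (adjusted p = 0.00776) had at most 1 read in any library. Mir6900 (adjusted p = 0.0362) had 0 and then 14.2 and 12.8 in WT and 1.40 and 0.965 and then 20.9 and 16.3 in null cells. Each has a pair of libraries at 0, and 0 of the 5 remained called with a replicate block.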

How the results depend on the processing

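The counts of called genes depended on the pseudocount, the filter, the centring and the 10-min libraries. With a pseudocount of 1 there were 1682 higher and 1887 lower genes, with a mean RPKM above 0.5 at both times 1749 and 1840, and above 2 there were 1608 higher and 1176 lower. Without a filter 4011 were higher and 4369 lower. Except above 2, these settings have more lower than higher genes. Without centring there were 5774 higher and 1278 lower, and centred on genes under 5 kb 4311 higher. Leaving out each library gave 1193 to 2949 higher and 1630 to 2511 lower genes, and against like length 56 to 1334 and 159 to 1711; the lowest of each came without the first 10-min library. Of the named genes, 25 lost their call without the first and 21 without the second 10-min library, 3 and 2 without the first and the second 5-min library, 12 without centring and 0 to 6 under each other setting. Named genes that failed a filter were left out of that fit and are not counted here. With a mean RPKM above 0.5 at both times this holds for the 12 largest gains other than Masp2 and Klhdc9. It also holds for the 12 largest losses other than Znrf3, Aspn, Ptpn12 and Hist1h2bg, and for some list members such as Sesn1. A lone library is assumed to vary like the other group.

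Replicate numbers are shared by the times, but the labels do not say that a number marks a shared batch, and the deviations of same-numbered libraries correlated at 0.086 over all genes and 0.515 over the 7128 genes with at least 200 reads. With a replicate block 2778 genes were higher and 2363 lower, and against like length 1149 and 1675. The difference between genotypes gave 0 and 0 genes with the block, 4 higher and 2 lower with a pseudocount of 1, and 1 to 4 higher and 1 to 8 lower on leaving out each library.

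The contrast of 15 to 30 kb with under 5 kb stayed between 0.53 (pseudocount 1) and 0.89 in all settings tried, with 0.70 on counted length. Signs turned only in genes that were not called. For Eed the ratio was -0.018 with RPKM above 0.5 at both times, -0.055 above 2, -0.015 at 20 reads and -0.022 to 0.098 on leaving out each library, and for Eloa -0.028 to 0.56 on leaving out each. For Col1a1 it was 0.15 without a filter, 0.62 without centring, 0.28 centred on genes under 5 kb, 0.081 with quantile normalization and -0.20 to 0.16 on leaving out each library. Without centring it was 0.027 for Col5a1, 0.39 for Fn1, 0.074 for Mir293 and 0.21 for Vim, and for Fn1 0.052 centred on genes under 5 kb. The cause was not tested.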
